A study of Arabidopsis thaliana with 9 samples.

Results

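The chromosome 1 pericentromere of Arabidopsis thaliana is described here by its FIE peaks, chosen by position alone. A peak belonged to it when its summit lay on chromosome 1 from 12500 to 17000 kb (TAIR10), a window of 4.5 Mb. The wild-type list had 461 such peaks of 6540 in all, and that of the knockdown 690 of 4882. FIE is a subunit of Polycomb repressive complex 2 (PRC2), which places the repressive mark H3K27me3 on histone H3. In plants PRC2 is known for the silencing of developmental genes on the chromosome arms. Pericentromeres are packed with transposable elements and satellite repeats, and are known to be silenced mainly by DNA methylation and H3K9 methylation.

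The series holds 9 libraries of plants of strain Ws aged 30 hr, with 3 biological replicates in each of 3 groups. The groups are anti-FIE chromatin of the wild type with no transgene, anti-FIE chromatin of plants carrying pRNAi-BPC and pRNAi-ZnF (the knockdown), and input chromatin of the wild type. BPC proteins bind GAGA motifs, and the labels neither spell out ZnF nor name the promoter of the transgenes or the genes they target. The files gave 1 peak list per anti-FIE group, so no difference below was tested against replicate error, and no input of the knockdown plants was analysed here. Each 95% interval covers only the sampling of peaks. The knockdown list is named in the files by an abbreviation that the labels do not use, and was assigned as the one remaining anti-FIE group. The peaks are placed on TAIR10, the genome of strain Col-0.

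The annotation of the window matched its name. It held 318 protein-coding genes, or 70.7 per Mb, against 263.7 per Mb on the rest of chromosome 1. Pseudogenes, a class into which the RefSeq table may also put transposable element genes, numbered 507 in the window (112.7 per Mb against 16.3 elsewhere on the chromosome). Protein-coding genes covered 14.4% of the window, pseudogenes 27.5% and RNA genes 0.851%, which left 57.2% outside genes.

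Of the wild-type peaks in the window 63.1% also had a peak in the knockdown, whose list held 420 more. Of the 461 wild-type peaks, 291 overlapped a knockdown peak by at least 1 bp (95% Wilson interval 58.6 to 67.4), against 22.4% of all wild-type peaks of the series. In the knockdown list 270 of 690 were shared (39.1%, 35.6 to 42.8), against 27.7% of all knockdown peaks. The wild-type share depended on the rule: it was 42.3% with summits within 50 bp, 44.2% at a −log10 q of at least 20 and 41.4% without the stretch from 15000 to 15500 kb. On the rest of chromosome 1 the shares were 5.02% of 1316 wild-type and 10.6% of 585 knockdown peaks. The window thus held more knockdown than wild-type peaks, and the rest of the chromosome fewer.

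Depth bears on these counts, because a site that is too weak is missing from a list even if FIE was bound there. The fold enrichment and p-value of each peak, both the authors' values, fix a summit pileup (the number of fragments at the summit) and a background (the number the peak caller took as its reference there). The most common background was 16.85 fragments for the wild type against 7.94 for the knockdown, a ratio of 0.471 that is taken here as the ratio of depths. At this scaling 93 wild-type peaks of the window would still pass at the knockdown depth, and 58 of them overlapped a knockdown peak (62.4%, 52.2 to 71.5). Over the whole series 41.4% of such peaks did. Of the other 368, which would not pass, 233 overlapped a knockdown peak as well (63.3%, 58.3 to 68.1), against 15.7% over the series. Over all gene classes of the window together, the scaled threshold therefore did not separate the wild-type peaks that had a knockdown peak from those that did not. Of the 420 peaks found only in the knockdown, 202 had a pileup of 35 to 40, where 35 was the lowest in that list.

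Along the window both lists were concentrated on a short stretch right of its middle. From 15000 to 15500 kb lay 234 wild-type peaks (50.8% of the members) and 300 knockdown peaks (43.5%), in a stretch with 5 protein-coding genes. There 197 of the 234 wild-type peaks were shared (84.2%), and wild-type peaks covered 12.7% of the sequence, knockdown peaks 20.8%. The fullest 100 kb bin was the same in both lists, 15100 to 15200 kb, with 71 peaks in each, of which 63 wild-type and 49 knockdown peaks were shared. Next in the wild type came 15200 to 15300 kb with 57 peaks, 15300 to 15400 kb with 52, 15000 to 15100 kb with 38 and 14600 to 14700 kb with 22. In the knockdown they were 15300 to 15400 kb with 69 peaks, 15200 to 15300 kb with 67, 15400 to 15500 kb with 47 and 15000 to 15100 kb with 46.

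Few peaks overlapped from 12500 to 13500 kb and from 16000 to 16500 kb, where genes are denser than in the middle. From 12500 to 13000 kb, with 88 protein-coding genes, 3 of 22 wild-type peaks were shared, and from 13000 to 13500 kb, with 55, 2 of 20 were. From 16000 to 16500 kb, with 48 genes, none of 12 wild-type and none of 24 knockdown peaks overlapped the other list, which allows shares of up to 24.2% and 13.8% (upper Wilson bounds). From 16500 to 17000 kb, with 60 genes, 14 of 37 wild-type and 14 of 41 knockdown peaks were shared. In each list 12 of these lay from 16500 to 16600 kb. From 13500 to 14000 kb 4 of 7 wild-type and 4 of 39 knockdown peaks were shared. That is a higher share than from 16500 to 17000 kb in the wild type and a lower one in the knockdown. Without the stretch from 15000 to 15500 kb the shares for the whole window were 41.4% of 227 wild-type and 23.6% of 390 knockdown peaks. The last peak left of the window had its summit at 12462302 (wild type, fold 3.08) and 12437170 (knockdown, fold 4.51). The first inside stood at 12622246 (3.23) and 12526207 (4.02), and none of these 4 was shared. At the right edge the last peaks inside, at 16947793 (3.25) and 16947762 (4.81), overlapped each other. The first beyond it, at 17013332 (3.70) and 17025853 (4.02), were not shared.

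**Figure D1:**
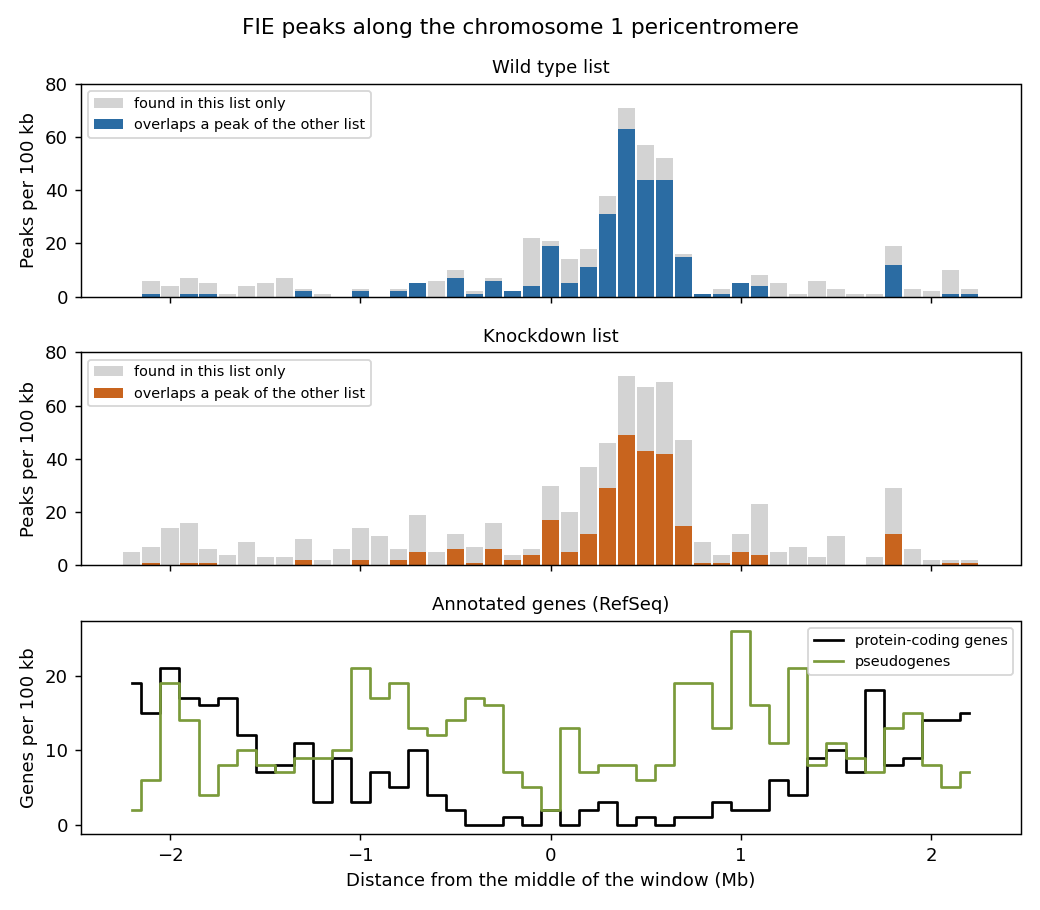
Peaks per 100 kb (upper and middle panels) and annotated genes per 100 kb (lower panel) by distance in Mb from the middle of the window; coloured bars are peaks that overlap the other list and grey bars those that do not. The tallest bar in each list is 71 peaks, in a stretch with almost no protein-coding genes.

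Wild-type peaks in pseudogenes and outside genes were mostly shared, and those in protein-coding genes at about the share of the whole series. Of the summits 40 lay in protein-coding genes (8.68% of the members). Of these peaks 8 were shared (20%, 10.5 to 34.8), against 22.4% of all wild-type peaks and 5.02% of those on the rest of chromosome 1. The 8 lay in AT1G38790, AT1G39070 and AT1G40104 alone, most of them in AT1G39070. The interval treats them as independent, so the share is one of peaks and not of genes. In pseudogenes 39 of 65 were shared (60%, 47.9 to 71.0), and outside genes 243 of 348 (69.8%, 64.8 to 74.4). In RNA genes 1 of 8 was. Among wild-type peaks that would pass at the knockdown depth the shared counts were 1 of 11 in protein-coding genes and 8 of 8 in pseudogenes (67.6 to 100). They were 0 of 3 in RNA genes (0 to 56.1) and 49 of 71 outside genes. Among peaks that would not pass they were 7 of 29, 31 of 57, 1 of 5 and 194 of 277, in the same order.

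In the knockdown list the classes stood differently. Summits in pseudogenes made up 25.4% of its members (175 peaks), against 14.1% of the wild-type members. Pseudogenes covered 27.5% of the window, so the knockdown share was close to their share of the sequence and the wild-type share was below it. Of the 175, 140 were found only in the knockdown. The shared part was thus 20%, against 27.7% of all knockdown peaks and 39.1% of those in the window. The median length of the 140 was 157.5 bp, no fold among them was above 6.26, and 85 of them had a pileup of 35 to 40. Outside genes lay 475 knockdown peaks (68.8%), of which 227 were shared (47.8%, 43.3 to 52.3). Of 38 in protein-coding genes (5.51%), 7 were shared.

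**Figure D2:**
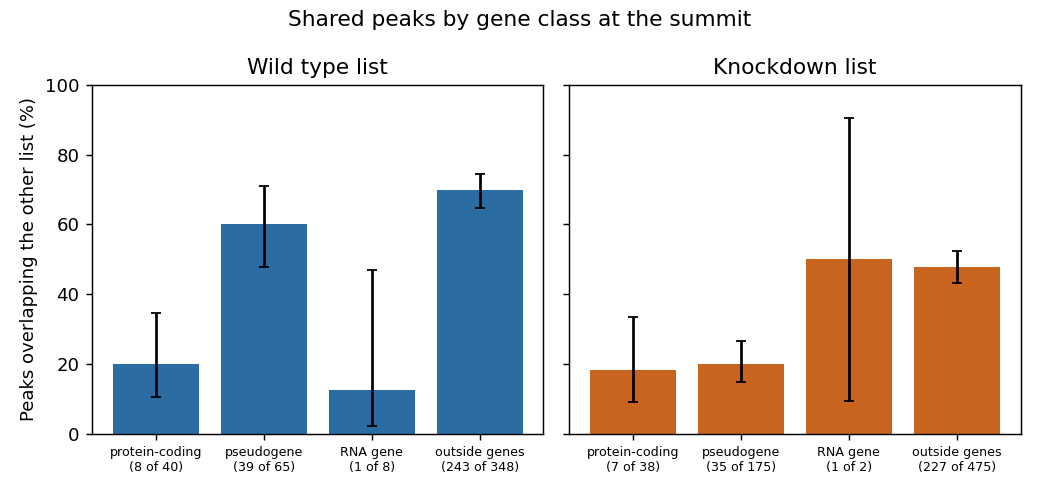
Percentage of peaks that overlap a peak of the other list, by the class of gene at the summit, with 95% Wilson intervals as error bars and counts under each bar. In the wild type the bar for protein-coding genes stands at 20% and that outside genes at 69.8%.

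At the top of the wild-type-only peaks stood broad ones on or beside genes. The highest wild-type fold was 10.7, over 1987 bp at AT1G35830 (13320710 to 13322696). MCT1, whose name stands for a MEI2 C-terminal RRM-only-like protein, had a peak of 1515 bp with a fold of 9.58 (14171108 to 14172622). A peak of 1189 bp with a fold of 9.39 had its summit in the long noncoding RNA gene AT1G07147 and ran into its neighbour AT1G43140 (16232219 to 16233407). A peak of 1520 bp with a fold of 8.15 had its summit in the RNA gene AT1G09235 (13281059 to 13282578), and one of 608 bp with a fold of 6.11 lay in AT1G44740 (16888066 to 16888673). These 5 were chosen as the highest folds among peaks without a knockdown peak, and all would have passed at the knockdown depth. Their pileups ran from 108 to 216 fragments, over backgrounds of 16.85 to 19.24.

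Wild-type-only peaks strong enough for the knockdown depth fell into 2 kinds by background, a split made after their values were seen. Of 35, 18 had a background of 16.85 to 25.3 fragments, up to 1.5 times the common value. Of these, 10 had their summits in protein-coding genes and 3 in RNA genes, with a median length of 695 bp and folds of 4.07 to 10.7. The other 17 had backgrounds of 58.7 to 137.8 fragments. All 17 lay outside genes and from 14000 to 16000 kb, 13 of them from 14600 to 14900 kb, with a median length of 120 bp and folds of 2.11 to 3.24.

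In the bin from 14600 to 14700 kb most wild-type peaks had no partner, as over the series (22.4% shared) and unlike in the whole window (63.1%). This bin held 22 wild-type peaks, all outside genes, of which 4 were shared, and 6 knockdown peaks, of which 4 were shared. The median wild-type background there was 69.96 fragments, and the highest pileup was 435 at 14658439 to 14658744, a peak of 306 bp with a fold of 3.14 over a background of 137.8. Of the 18 unshared wild-type peaks in this bin, 8 would have passed at the knockdown depth. From 14800 to 14900 kb 5 of 14 wild-type and 5 of 20 knockdown peaks were shared, with a median wild-type background of 55.5 fragments. Of the 9 unshared wild-type peaks there, 4 would have passed. Another bin of raised background, 16500 to 16600 kb, had 19 wild-type and 29 knockdown peaks, of which 12 and 12 were shared. In it the pseudogenes AT1G43740, AT1G43745, AT1G43750 and AT1G43755 held 10 wild-type and 16 knockdown summits in all.

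Of the 318 protein-coding genes, 32 carried a wild-type peak on the body (10.1%) and 28 a knockdown peak (8.81%). Over all protein-coding genes of the nuclear chromosomes the shares were 9.94% and 4.39%. The wild-type share in the window was thus close to that of all genes, and the knockdown share was above it. In the window 27 genes were marked only in the wild type, 23 only in the knockdown and 5 in both. Thus 27 of 32 genes with a wild-type peak had none in the knockdown, against 92.4% over all genes, and 23 of 28 the reverse, against 82.9%. On the 27 the peaks spanned a median of 445 bp of the body, and on 15 of them at least 400 bp. On the 23 the median was 114 bp and the highest 345 bp. Folds on the 23 reached 12.2 at ARF23 and no more than 5.48 elsewhere, and on 10 of them the fold was below 4.1, close to the lowest that a peak at the common background could have in that list. Of the 12 genes with a wild-type peak that would pass at the knockdown depth, 10 had no knockdown peak, and over all such genes 89.9% had none.

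Among the genes marked only in the wild type were several known regulators. TT1, a zinc finger gene of seed coat pigmentation, had 274 bp of peak with a fold of 4.26. TCP23 (AT1G35560), of the TCP transcription factor family, had 1193 bp with a fold of 4.75. SEU, which encodes the corepressor SEUSS, known to repress AGAMOUS, had 344 bp with a fold of 4.76. These are the 3 bound genes of 12 fixed transcriptional regulators in the window. The knockdown list held a peak at none of the 12. Genome-wide, 9.94% of genes coding for protein were marked in the wild-type list and 4.39% in that of the knockdown. At such shares 12 genes are too few to show a lack of knockdown peaks. The wild-type peaks of TT1, TCP23 and SEU would have passed at the knockdown depth.

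Other genes of this kind belong to metabolism, hormone response and RNA binding, and were named after their values were seen. FTM1, a stearoyl-ACP desaturase gene, had 1315 bp of peak with a fold of 4.59, and the nitrate reductase gene NIA2 had 1186 bp with a fold of 3.84. The auxin-related genes SAUR58 (AT1G43040) and ILL6 had 541 and 714 bp, with folds of 4.82 and 3.21. The Pumilio genes PUM9 and PUM10, for RNA-binding proteins, had 365 and 111 bp, with folds of 3.64 and 3.05. Wild-type peaks of NIA2, ILL6, PUM9 and PUM10 would not have passed at the knockdown depth. Of 29 such peaks with summits in protein-coding genes of the window 7 were shared (24.1%, 12.2 to 42.1), all in AT1G38790 and AT1G39070. Over the series 15.7% of the wild-type peaks that would not pass were shared. The summit of the PUM10 peak lay outside genes, so that peak is not among the 29. A peak of 835 bp with a fold of 5.36 whose nearest gene is the root MYB gene MYB93 (12712364 to 12713198) was also absent from the knockdown list.

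The ARF genes of the window, a group of related auxin response factors, showed short peaks in different members in each list. Of 7 such genes, 1 was marked in the wild-type list, 3 in that of the knockdown and none in both. Over all protein-coding genes 92.4% of those with a wild-type peak had none in the knockdown, and 82.9% the reverse. So few ARF genes therefore cannot show a lack of overlap. ARF20 had 190 bp in the wild type with a fold of 3.75, which would not have passed at the knockdown depth. In the knockdown ARF23 had 127 bp with a fold of 12.2 (16673586 to 16673712), ARF14 81 bp with a fold of 5.48 and ARF22 82 bp with a fold of 4.02. These genes are close paralogs, and the placing of reads that match several copies was not stated in the sources used here. None of 8 fixed broadly expressed genes in the window had a peak in either list. Among them were the acetyl-CoA carboxylase genes ACC1 and ACC2, the chloroplast GAPDH gene GAPB, the photoprotection gene NPQ4 and the DNA replication gene MCM2. Over all protein-coding genes the shares were 9.94% and 4.39%, so 8 genes are too few to show a lack of peaks. Outside the window SERK2 and TRX5, of the same list, had wild-type peaks with folds of 3.08 and 3.04.

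The protein-coding genes marked in both lists were AT1G38790, AT1G39070, AT1G40104, AT1G40129 and AT1G44050. AT1G39070 had 2022 bp of wild-type and 6872 bp of knockdown peak, with 7 and 12 summits. The strongest wild-type peak on it, at 14734673 to 14734838 with a fold of 4.2, was not itself shared, and 6 others were. At AT1G40104 the longest peak of each list lay at nearly the same place, from 15081936 (wild type) or 15081941 (knockdown) to 15086049. It spanned 4114 and 4109 bp and covered 3942 bp of the gene in each list. Its fold was 6.04 for the wild type against 10.9 for the knockdown, over backgrounds of 131.6 and 65.2 fragments, and its pileups of 800 and 719 were the highest of the window. This was the 1 shared peak in a protein-coding gene that would pass at the knockdown depth.

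The strongest shared peaks and the strongest knockdown peaks were mostly short and lay outside genes. Among the 10 highest folds of the knockdown, 8 peaks were shared, 7 were under 200 bp and 3 had a summit in any gene. The highest, 23.3 in the knockdown and 9.05 in the wild type, was at 13430221 to 13430345, between the pseudogene AT1G36010 and AT1G36005. Its pileup was 241 in the knockdown and 168 in the wild type, so the shallower list had more fragments. The same order held at 16868303 to 16868650, with a knockdown pileup of 124 and fold of 14.0 against a wild-type pileup of 83 and fold of 4.70. It held too at 12907605 to 12907725, with a knockdown pileup of 119 and fold of 13.4 against 76 and 4.31.

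The other 3 short shared peaks among the 10 highest folds of both lists were lower in the knockdown by pileup. At 14408816 to 14408959 the pileup was 116 in the knockdown and 136 in the wild type. At 14363175 to 14363305 it was 117 against 138, and at 14473683 to 14473814 it was 113 against 135. Their knockdown folds were 13.1, 12.8 and 11.4, and their wild-type folds 7.67, 6.21 and 6.85. All 3 pileup ratios were above 0.471.

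The 2 strongest knockdown peaks without a wild-type partner were of the same short form. At 13102831 to 13102975 a peak of 145 bp had a fold of 13.6 and a pileup of 121, and the one in ARF23 had a pileup of 108. Next came peaks with folds of 7.43 at 14723092 to 14723323, 7.16 at 15645839 to 15645987 and 6.35 at 14873407 to 14873906. Also among the 10 highest folds of the knockdown was the peak from 15039781 to 15042268, of 2488 bp with a fold of 9.73, at the pseudogene AT1G40093. Together with the peak at 15043717 to 15045995 (2279 bp, fold 7.94) it makes a row of long shared peaks. In the wild type the second longest peak, of 2112 bp with a fold of 4.70, lay there too, at the pseudogene AT1G40095, which held 7 wild-type and 5 knockdown summits. The knockdown peaks at 15120931 to 15124774 (3844 bp, fold 3.40) and 15114896 to 15117013 (2118 bp, fold 3.53) were also among its 5 longest.

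In length the 2 lists had the same median in the window, 195 bp (95% interval 175 to 209 for the wild type, 182 to 214 for the knockdown). On the rest of chromosome 1 the medians were 280 bp for the wild type against 133 bp for the knockdown. Shared peaks were longer than unshared ones in each list, with medians of 205 against 176 bp for wild-type and 274.5 against 156.5 bp for knockdown peaks. The intervals overlapped in the wild type (181 to 216 and 149 to 210) and not in the knockdown (244 to 334 and 143 to 171). Of 16 wild-type peaks of at least 1000 bp, 9 were shared, and of 21 such knockdown peaks, 18 were. A longer peak meets the rule of a 1 bp overlap more easily, so these differences can follow in part from the rule. Wild-type folds in the window ran from 1.78 to 10.7 with a median of 3.04, and the knockdown folds from 2.09 to 23.3 with a median of 4.25. In base pairs, 126.1 kb of the window lay in wild-type peaks and 203.5 kb in knockdown peaks, and 69.7 kb lay in both.

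**Figure D3:**
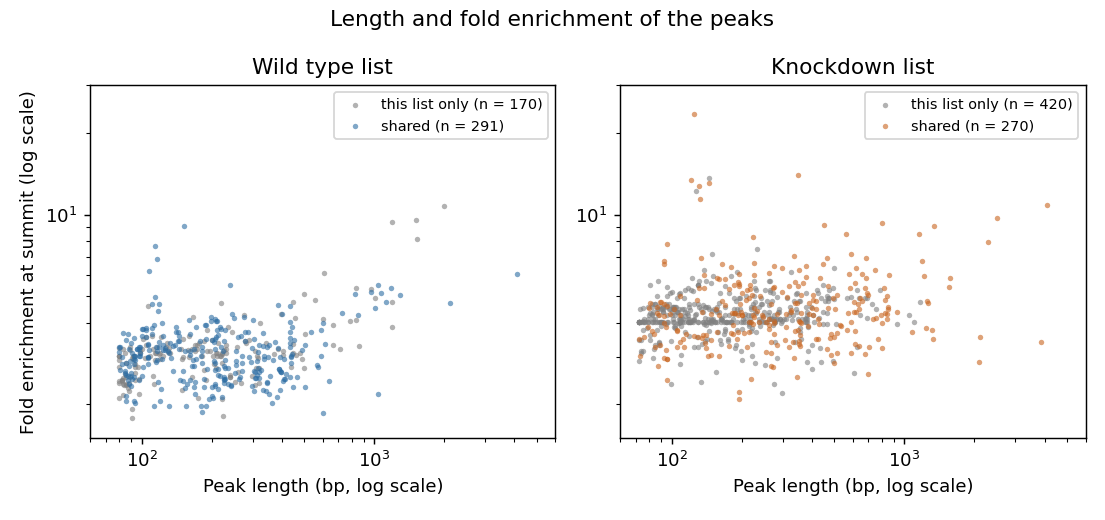
Fold enrichment at the summit against peak length, both on log scales, for each peak of the window; coloured points are shared peaks and grey points those of 1 list alone. In the wild type the 4 points above a fold of 8 and a length of 1000 bp are unshared, and in the knockdown a group of short peaks stands above a fold of 10.

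Where both lists had a peak, it was in most cases at the same spot. The 291 wild-type and 270 knockdown peaks formed 300 overlapping pairs, with a median distance of 19.5 bp between summits. The knockdown peak was the longer in 220 pairs and the wild-type peak in 78, although the knockdown list was the shallower. These are counts of pairs and not of separate peaks. Of the knockdown peaks 21 had 2 or more wild-type partners, and of the wild-type peaks 9 had 2 or more knockdown partners, so long peaks count repeatedly. In 172 pairs the summits were within 30 bp. At these the background in the knockdown was a median of 0.471 times that in the wild type (interquartile range 0.464 to 0.484). It was 0.474 at the 104 of them whose wild-type background was over 1.5 times the common value. Which libraries set these backgrounds was not stated. With the same input scaled to both lists the ratio would be fixed, so its steadiness is no check of the scaling.

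The summit pileup was less reduced than the background at these coincident summits. Its median ratio was 0.709 (0.643 to 0.800), it was above the background ratio in 168 of 172 pairs, and in 13 the knockdown pileup was the higher. A pair needs a peak in both lists, and the lowest pileups listed were 53 and 35, so weak pairs could not have had a low ratio. For the 43 pairs whose wild-type peak would pass at the knockdown depth the median ratio was 0.640 (0.524 to 0.743), and 39 were above the background ratio. The same median was 0.808 to 0.893 in the gene-poor regions (runs of 100 kb bins with few protein-coding genes) of the other 4 nuclear chromosomes, where 22 to 178 such pairs were found. These differences rest on 1 list per group and were not tested.

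**Figure D4:**
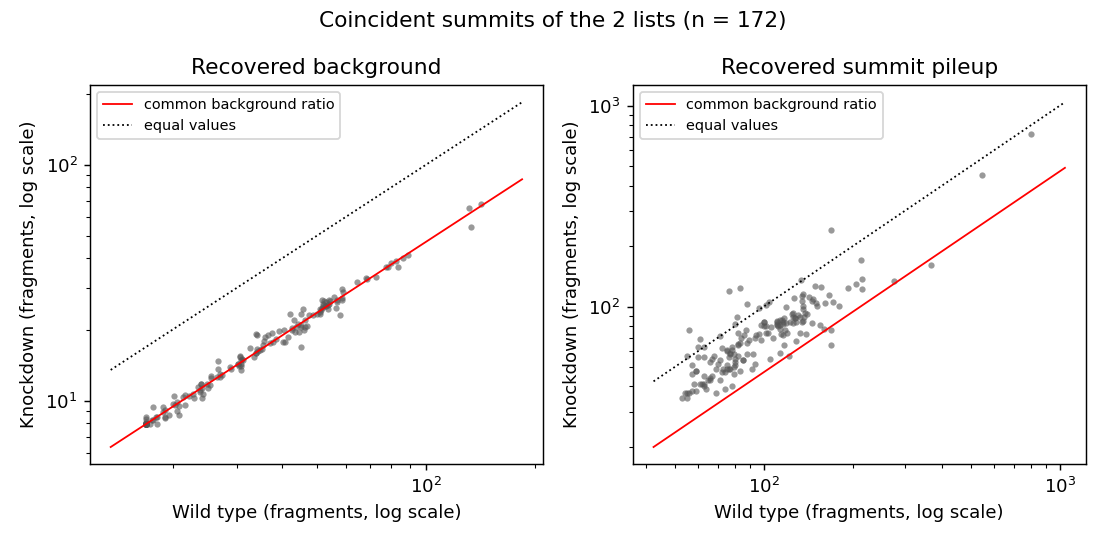
Background (left) and summit pileup (right) at 172 coincident summits, knockdown against wild type, in fragments on log scales; the red line marks the ratio of the common backgrounds (0.471) and the dotted line equal values. Backgrounds follow the red line, and nearly all pileups lie above it, with 13 above the dotted line.

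Raised backgrounds were common in the window. In the wild type 47.5% of its peaks, and 54.6% of its shared peaks, had a background over 1.5 times the common value, against 2.13% on the rest of chromosome 1. In the knockdown the shares were 33.9% and 0.855%. The gene-poor regions of chromosomes 2, 4 and 5 had such backgrounds at 42.7%, 48.8% and 47.0% of their wild-type peaks, and that of chromosome 3 at 9.27%. Where an input serves as the reference, as it can in the peak caller, a raised background is a place with more input fragments, but which libraries set it was not stated in the sources used here. Its part in the presence of peaks was not tested. No deposited peak had a −log10 q below 10. Peak numbers follow position, and 1775 wild-type and 2652 knockdown numbers fall between the first and the last peak of the window. The deposited members are 26.0% of these in each list, against 17.3% and 7.56% on the rest of the chromosome.

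Gene-poor regions of the other chromosomes also held more knockdown than wild-type peaks, and more of their strong wild-type peaks were shared. These regions were taken by gene density, and the same rule on chromosome 1 gave 425 wild-type peaks, of which 67.3% were shared (62.7 to 71.6). On chromosomes 2, 3, 4 and 5 the share was 55.6% of 117 (46.5 to 64.2), 77.2% of 399 (72.8 to 81.0), 75.4% of 203 (69.0 to 80.8) and 80.5% of 502 (76.8 to 83.7). Among wild-type peaks that would pass at the knockdown depth, 65.1% of 86 were shared on chromosome 1, against 87.9% of 33, 95.7% of 208, 96.2% of 78 and 97.3% of 260 on the others. These are counts of peaks in 1 list per group, with no test over replicates.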

How the data were processed

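Per the submitters' processing notes the tools were MACS2 (2.1.0.20151222), Bowtie2 and bedtools, on TAIR10, with no roles given. How replicates and input were combined was not stated there. Each deposited narrowPeak row gives a score (10 times the −log10 q), a fold enrichment ratio, the −log10 of a p-value and of a q-value, and a summit offset. The authors' fold and −log10 p were used to recover a whole-number pileup and a background under a Poisson model with a pseudocount of 1 (largest misfit 7.27e-04 in −log10 p, checked on simulated data). A wild-type peak would pass at the knockdown depth when its scaled pileup and background reached the smallest −log10 p among knockdown peaks (12.4). Library depth is unknown.

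Peaks were compared by overlap of at least 1 bp, with Wilson intervals for shares and order-statistic intervals for medians (Python 3.11.15, scipy 1.17.1). Gene classes were read at the summit, in the order protein-coding, pseudogene, RNA gene. They come from RefSeq genes of TAIR10.1, whose nuclear sequence was taken to equal that of TAIR10. No gene coordinate of that table is printed. Gene-poor regions were the longest run of 100 kb bins with a smoothed number of protein-coding genes under 0.5 times the median bin. The named peaks are the 10 highest folds, the 5 longest and the 5 highest unshared folds of each list, and the 5 strongest pairs. The named genes hold these summits or stand on 3 lists (37 genes), and others are marked as chosen later. Members and lists were chosen with earlier results of these data known.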

Additional observations from a re-analysis of the deposited data

How the results depend on the processing

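No paired analysis was possible because each group has 1 peak list, and for the same reason no replicate could be left out. Counting a peak as shared only with summits within 50 bp gave 42.3% of wild-type and 28.3% of knockdown peaks. With an overlap of at least 50% of the shorter peak the shares stayed within the intervals, as did the wild-type share over peaks that would pass at the knockdown depth. At a −log10 q of at least 20 there were 120 wild-type and 163 knockdown peaks, with shared shares of 44.2% and 33.1%, median lengths of 240 and 273 bp, and 11.7% and 3.68% of summits in protein-coding genes. In the narrower window from 13500 to 16000 kb the shared shares were 73.5% and 45.8%, and 3.78% and 3.10% of summits lay in protein-coding genes. Without 15000 to 15500 kb, an alternative chosen after seeing the data, 227 and 390 peaks were left, with shared shares of 41.4% and 23.6%, 17.2% and 9.23% in protein-coding genes, and a knockdown median length of 171.5 bp. Counting summits within 1 kb of a gene raised the knockdown share in protein-coding genes to 8.99%. The causes were not tested. Depth limits what can be said of weak peaks: 368 of the 461 wild-type peaks would not pass at the knockdown depth by the scaling of backgrounds, yet 233 of these overlapped a knockdown peak.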
